A study of Mus musculus with 9 samples.

Results

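The potassium channel subunits described here were the 97 rows, of 35112 genes in the deposited expression table, whose gene name begins with Kcn, a family letter code and a number, pseudogenes left out. Of these rows 92 have a protein-coding transcript and 5 are antisense transcripts named after a channel gene, which are not subunits. Polyadenylated RNA was sequenced from the brains of wild-type C57BL/6 mice in 3 groups of 3 animals each: mice with intracerebral haemorrhage (ICH) given the aminopropyl carbazole P7C3-A20, mice with ICH alone, and sham controls. All brains were collected 72 hours after the procedure. The labels name the tissue only as brain and give no region, dose, age, sex or method of inducing the bleed. No member was at 0 in all 9 libraries, 88 had enough counts to be tested, and 9 did not and are given apart.

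Potassium channels let potassium leave or enter a cell and so set its resting potential, shape and end its action potentials and clear potassium from the space around it. Pore subunits assemble as tetramers, or as dimers in the K2P family, and associate with auxiliary subunits that alter gating and placement in the membrane. In brain, voltage-gated (Kv), KCNQ, calcium- and sodium-activated and strongly rectifying channels are mainly neuronal, Kcnj10 is the principal inward rectifier of astrocytes, and microglia and invading leukocytes carry a small set of other channels.

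Libraries are named by group and replicate, and held 51537047 to 63324728 estimated counts. A count of 3 in 1 library equals 0.0474 to 0.0582 CPM, the count scaled to depth, a limit that covers counting error only. It takes each estimated count as 1 fragment, which these counts need not be. The summed FPKM of the 97 rows, that is fragments scaled for transcript length and sequencing depth, was 599, 667 and 555 in ICH+P7C3-A20 replicates 1, 2 and 3, 524, 489 and 566 in ICH, and 608, 596 and 782 in sham. Sham 3 stood above every other library, and all 3 ICH libraries lay below all 3 sham libraries. Members took 0.419% to 0.474% of counts in ICH+P7C3-A20, 0.368% to 0.395% in ICH and 0.453% to 0.563% in sham. Mitochondrial transcripts took 9.14% to 18.5% of counts. Defining markers of neurons, astrocytes and resident microglia were above 0 in every library. ICH+P7C3-A20 1 had the highest summed level of 6 cortical excitatory neuron markers, 175 FPKM, against 66.9 and 70.1 FPKM in ICH+P7C3-A20 2 and 3, 29.4 to 39.9 FPKM in ICH and 16.0 to 65.0 FPKM in sham. In these bulk samples fewer cells of a type and less RNA per cell cannot be told apart.

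Of the 97 rows 23 had a mean of at least 10 FPKM in some group, 64 at least 1 FPKM in some group and 33 under 1 FPKM in every group. The 3 most abundant in sham were Kcnip2, a calcium-binding subunit of Kv4 channels, at 51.2 ± 24.3 FPKM, Kcnj10 at 43.3 ± 11.3 FPKM and Kcnj4, a strong inward rectifier of forebrain neurons, at 39.7 ± 23.3 FPKM (mean ± SD, n = 3). These neighbours in the order did not differ beyond their spread. Next came Kcnab2, a cytoplasmic Kv beta subunit, at 32.1 ± 5.02 FPKM, Kcnk1, a K2P pore, at 28.4 ± 4.45 FPKM, and Kcnd2, the dendritic A-type pore, at 25.8 ± 4.55 FPKM, again with overlapping libraries. Part of the spread in sham was 1 library: Kcnip2 had 40.7, 33.9 and 78.9 FPKM and Kcnj4 28.5, 24.1 and 66.5 FPKM in sham 1, 2 and 3. The 8 striatal projection neuron markers summed to 1069, 921 and 1615 FPKM in the same 3 libraries, so the library with most of both channels also had most striatal marker RNA. In the other direction sham 3 had the least Kcnc2, a fast-gating Kv3 pore, with 7.34, 11.0 and 3.86 FPKM, and the least Kcnip1, another Kv4 partner, with 4.18, 4.72 and 1.69 FPKM. Markers of thalamus and hypothalamus summed to 54.9, 82.3 and 5.60 FPKM in sham 1, 2 and 3. These 4 channel genes were picked after their values were seen, and the part that dissection may have in their spread was not tested.

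**Figure D1:**
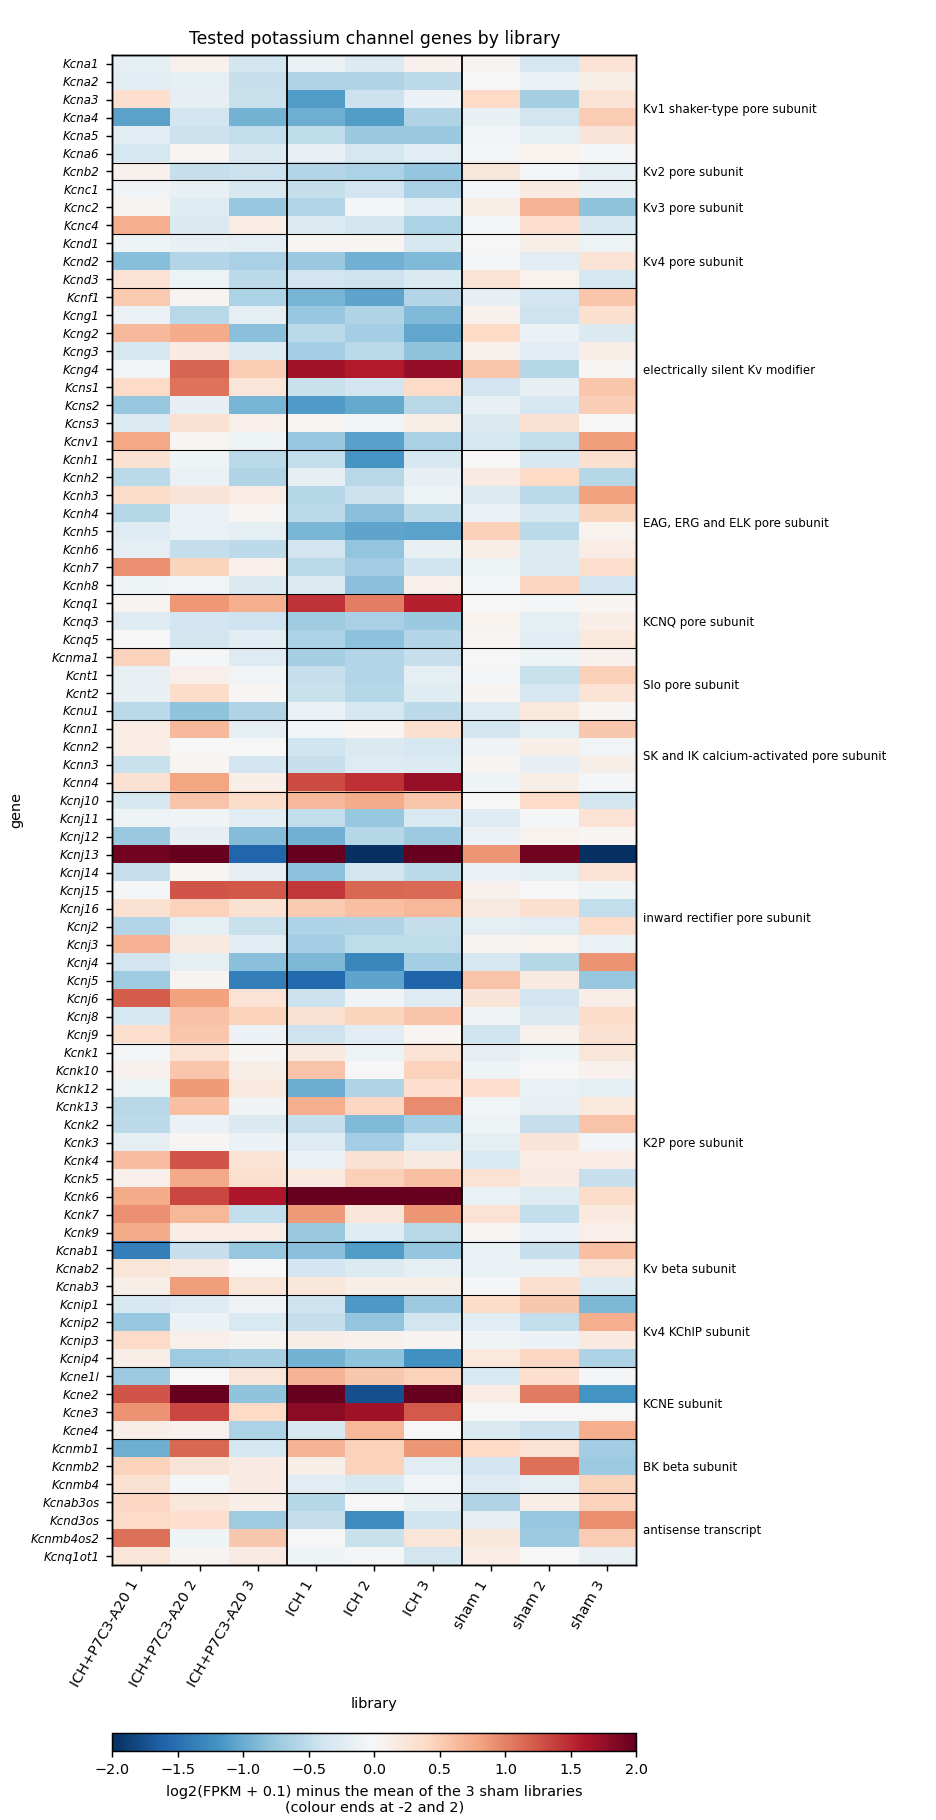
Rows are 84 tested potassium channel genes grouped by family and columns are the 9 libraries, 3 per group; colour is log2(FPKM + 0.1) minus the mean of the sham libraries, red above and blue below. Blue fills most of the 3 ICH columns, while Kcnk6, Kcng4, Kcnq1, Kcnn4 and Kcne3 are red in all 3, and Kcnj13 and Kcne2 change colour from library to library within each group.

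Comparing ICH with sham asks what the bleed alone did to channel transcripts. Among the 88 tested members 29 (33%) fell and 7 (7.95%) rose in ICH, by edgeR's quasi-likelihood test over all 21900 tested genes with a two-sided Benjamini-Hochberg adjusted p under 0.05. Over all tested genes 10.4% fell and 15.6% rose, so the share that fell was larger among the members, and the share that rose smaller, and this difference was not tested. The all-gene split was 3418 higher and 2283 lower calls here, 3340 and 1475 with edgeR on library totals, 3064 and 1112 with limma on log2(FPKM + 1), and 2910 and 3271 with limma after quantile normalization of those values. The median log2 change of the tested members was -0.46, against 0.00 for all tested genes. It was also -0.46 with the gene that was at 0 in sham set to its fold against a floor of 3 counts. In FPKM the 3 ICH libraries lay below all 3 sham libraries for 35 members and above them for 11, against 14.3% and 23% of all tested genes. Without sham 3, the library that stood highest, 31 members fell and 6 rose, but 16, 19, 16 and 17 fell without ICH 1, ICH 2, ICH 3 or sham 1, with 6 higher each time. The lists and members were not drawn at random, so these shares are a description.

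The 7 that rose include 3 channels known from leukocytes and microglia. Kcnk6, the K2P channel TWIK2 that in mouse macrophages is known as a potassium efflux path for inflammasome activation, had 1.42, 2.19 and 2.67 FPKM in ICH+P7C3-A20, 3.62, 4.21 and 4.06 FPKM in ICH, and 0.726, 0.668 and 1.07 FPKM in sham. Each ICH library lay above each treated library, and each treated library above each sham library. Its log2 change in ICH over sham was 2.23 ± 0.24 (the error is the size of the change over the root of edgeR's F; adjusted p = 8.11e-05), a 4.71-fold higher level. Kcnn4, the intermediate-conductance calcium-activated channel of microglia, lymphocytes and red cells, had 0.0784, 0.148 and 0.0572 FPKM in ICH+P7C3-A20, 0.258, 0.294 and 0.383 FPKM in ICH, and 0.0364, 0.0567 and 0.0399 FPKM in sham. These levels rest on 26, 53 and 20 counts in ICH+P7C3-A20, 90, 104 and 129 counts in ICH and 14, 22 and 15 counts in sham. The ICH libraries stood apart above both other groups, with a log2 change of 2.67 ± 0.42 over sham (adjusted p = 0.00111). Kcnk13, the K2P channel THIK1 that carries much of the resting potassium current of mouse microglia, had 1.64, 3.76 and 2.33 FPKM in ICH+P7C3-A20, 4.11, 3.27 and 4.80 FPKM in ICH, and 2.34, 2.20 and 2.83 FPKM in sham. All 3 ICH libraries were above sham but ICH+P7C3-A20 2 reached into the ICH range, and the log2 change over sham was 0.67 ± 0.21 (adjusted p = 0.0386). The call of Kcnk13 ended when any 1 of the 6 libraries was left out (adjusted p = 0.0523 to 0.128), and also with upper-quartile scaling (0.0502), library totals (0.0668), no count filter (0.0508) and limma (0.0843 to 0.105).

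A pore and its partner known from epithelia rose from very low levels. Kcnq1, the KCNQ pore of heart and epithelia, had 0.0844, 0.223 and 0.196 FPKM in ICH+P7C3-A20, 0.385, 0.262 and 0.423 FPKM in ICH, and 0.0776, 0.0742 and 0.0819 FPKM in sham, from 22, 63 and 54 counts in ICH+P7C3-A20, 106, 72 and 113 counts in ICH and 23, 21 and 25 counts in sham. ICH lay above sham in every library, with a log2 change of 2.1 ± 0.40 (adjusted p = 0.00316). Kcne3, the single-span subunit that holds KCNQ1 channels open in epithelia, had 10, 19 and 4 counts in ICH+P7C3-A20 and 32, 28 and 16 counts in ICH, and 0 in each sham library. Against a floor of 3 counts over the sham group it was 27.2-fold higher in ICH (adjusted p = 0.00384). The deposited counts are estimates rather than counted fragments, so this fold is not a strict lower bound. By whole gene span, introns included, the antisense transcript Kcnq1ot1 overlaps 93092 bases of Kcnq1, and Gm34821 overlaps 8368 bases of Kcne3 on the other strand. Kcng4, an electrically silent subunit that modifies Kv2 channels, had 0.709, 1.77 and 1.09 FPKM in ICH+P7C3-A20, 2.59, 2.40 and 2.74 FPKM in ICH, and 1.13, 0.467 and 0.748 FPKM in sham. Every ICH library was above every other library, with a log2 change of 1.66 ± 0.33 over sham (adjusted p = 0.00442). Kcnj15, an inward rectifier known from kidney, had 0.0110, 0.175 and 0.171 FPKM in ICH+P7C3-A20, 0.207, 0.154 and 0.152 FPKM in ICH, and 0.0219, 0.0146 and 0.00778 FPKM in sham, from 5, 76 and 72 counts in ICH+P7C3-A20, 89, 66 and 63 counts in ICH and 10, 7 and 4 counts in sham. ICH+P7C3-A20 1 was at the sham level and the other treated libraries at the ICH level, and the log2 change in ICH over sham was 3.37 ± 0.81 (adjusted p = 0.0114). No sham library had more than 10 counts of Kcne3 or Kcnj15. Both genes passed the count filter only with the ICH libraries, where they were high, and both kept their calls without that filter. The 6 genes other than Kcnk13 kept their calls with each ICH or sham library left out. Kcnn4, Kcnq1, Kcne3 and Kcnj15 have under 1 FPKM in every group, so a filter at that level removes them, and Kcnj15 missed the threshold under limma on quantile-normalized values (adjusted p = 0.0583). The size of their changes depended on the scale: on log2(FPKM + 0.1) and log2(FPKM + 1), which understate changes of low genes, limma gave 1.5 and 0.33 for Kcnn4, 1.34 and 0.33 for Kcnq1, 1.58 and 0.26 for Kcne3 and 1.23 and 0.21 for Kcnj15. On log2(FPKM + 1) Kcnk6 was at 1.45 and Kcng4 at 1.02, and all 6 passed on both scales (adjusted p = 0.000197 to 0.0434 for log2(FPKM + 1)).

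Markers of immune cells moved with these genes. All 7 monocyte and macrophage markers rose in ICH, summing to 28.1 to 62.7 FPKM in ICH+P7C3-A20, 176 to 224 FPKM in ICH and 5.06 to 6.07 FPKM in sham, with none at 0 in any group. All 6 resident microglia markers rose, summing to 117 to 193 FPKM in ICH+P7C3-A20, 281 to 326 FPKM in ICH and 68.8 to 97.1 FPKM in sham, again with none at 0. Of 4 tested neutrophil markers 3 rose, and the list of 5 summed to 1.45 to 2.73 FPKM in ICH+P7C3-A20, 2.97 to 7.61 FPKM in ICH and 0.0637 to 0.788 FPKM in sham, with Ly6g at 0 in ICH and in sham and Cxcr2 at 0 in sham. Of 4 tested T cell markers 1 rose, and the list of 5 summed to 0.372 to 0.658 FPKM in ICH+P7C3-A20, 0.525 to 2.16 FPKM in ICH and 0.0739 to 0.628 FPKM in sham, with Cd3d at 0 in ICH+P7C3-A20 and in sham and Cd8a at 0 in sham. All 5 endothelial markers rose too, summing to 48.7 to 68.2 FPKM in ICH+P7C3-A20, 93.9 to 112 FPKM in ICH and 34.2 to 47.5 FPKM in sham. The part of these cells in the channel genes that rose was not tested.

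**Figure D2:**
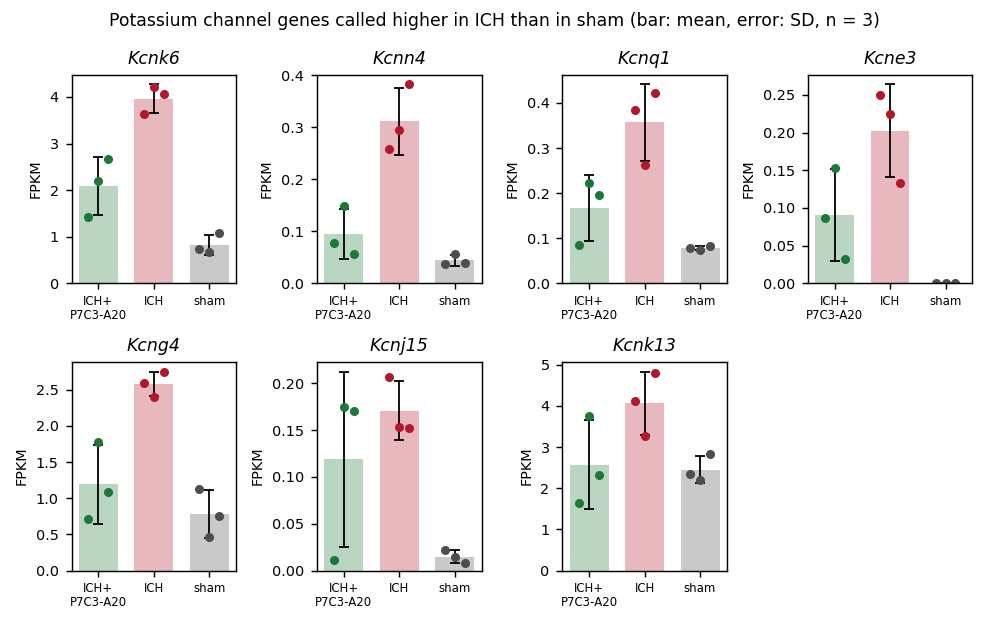
FPKM of the 7 potassium channel genes called higher in ICH than in sham; bars are group means, error bars SD (n = 3) and points libraries, with ICH+P7C3-A20 left, ICH in the middle and sham right. The ICH points lie above the sham points in all 7 panels, and all sham points of Kcne3 lie at 0.

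Promoter windows are shown for the 2 genes with the smallest p in each direction that have a RefSeq entry so that the start regions of genes called in either direction can be read. Among members that rose, Kcnk6 and Kcnq1 had smaller p than Kcne3. Each runs from 250 bases before to 50 bases after the annotated start on build GRCm38.p6, plus strand, read 5′ to 3′, and capitals mark matches to the motifs searched. The windows lie at chr7:24370013-24370312 for Kcnn4, chr7:100176420-100176719 for Kcne3 (1 of its 2 windows), chr6:21215096-21215395 for Kcnd2 and chr3:107101317-107101616 for Kcna2.
Kcnn4: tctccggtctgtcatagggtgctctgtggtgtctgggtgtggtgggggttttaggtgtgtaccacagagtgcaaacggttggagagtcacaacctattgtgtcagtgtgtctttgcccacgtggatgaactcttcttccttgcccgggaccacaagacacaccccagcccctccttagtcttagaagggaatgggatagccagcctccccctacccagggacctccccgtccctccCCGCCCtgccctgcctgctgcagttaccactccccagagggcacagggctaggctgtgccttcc
Kcne3: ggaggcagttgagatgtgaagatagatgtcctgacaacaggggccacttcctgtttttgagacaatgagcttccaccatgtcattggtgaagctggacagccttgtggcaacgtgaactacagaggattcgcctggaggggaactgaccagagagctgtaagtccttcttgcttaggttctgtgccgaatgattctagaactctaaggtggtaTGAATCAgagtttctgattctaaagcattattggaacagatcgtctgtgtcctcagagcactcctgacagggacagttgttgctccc
Kcnd2: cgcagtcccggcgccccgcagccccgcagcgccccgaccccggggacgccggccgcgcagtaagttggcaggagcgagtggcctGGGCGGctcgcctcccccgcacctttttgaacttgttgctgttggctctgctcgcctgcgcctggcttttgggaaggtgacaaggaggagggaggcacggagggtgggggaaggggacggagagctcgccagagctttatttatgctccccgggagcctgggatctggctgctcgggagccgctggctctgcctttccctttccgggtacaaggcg
Kcna2: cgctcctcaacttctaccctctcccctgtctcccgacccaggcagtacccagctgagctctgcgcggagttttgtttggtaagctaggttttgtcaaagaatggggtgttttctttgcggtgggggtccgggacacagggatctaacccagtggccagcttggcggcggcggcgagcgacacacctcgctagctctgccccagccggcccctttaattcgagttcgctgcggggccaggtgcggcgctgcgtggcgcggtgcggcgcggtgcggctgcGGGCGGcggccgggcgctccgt

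The 5 motifs below were searched on both strands: the GC box GGGCGG, the AP-1 site TGANTCA, the cyclic AMP response element TGACGTCA, the PU.1 core GAGGAAG and the TATA box TATAAA. Kcnn4, Kcnd2 and Kcna2 each held 1 GC box, in Kcnn4 on the minus strand, and Kcne3 held 1 AP-1 site; the other motifs had no match in these 4 windows. Of all 32851 RefSeq windows 35.7% held the GC box, 7.81% the AP-1 site, 1.79% the response element, 13.6% the PU.1 core and 13.6% the TATA box. For called members only the first-listed window of each gene was counted, whereas the shares above are over all windows, with several for some genes. Among windows of members that fell in ICH 13 of 21 held the GC box, 3 the PU.1 core, 1 the AP-1 site and 0 the TATA box or response element. Among windows of members that rose 1 of 5 held the GC box, 1 the AP-1 site, 1 the TATA box and 0 the PU.1 core or response element. In all, 70 members matched an entry, with 95 windows. A match is a description of the letters and names no bound factor.

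Transient A-type and axonal shaker-related channels had several of the smallest p-values among the members that fell. Kcnd2, the Kv4 pore that carries the dendritic A-type current, had 14.1, 16.9 and 16.2 FPKM in ICH+P7C3-A20, 15.3, 13.1 and 13.8 FPKM in ICH, and 24.8, 21.9 and 30.8 FPKM in sham. All 6 libraries with a bleed, treated or not, lay below all 3 sham libraries. Kcnd2 fell by 0.92 on the log2 scale in ICH (-0.92 ± 0.11; adjusted p = 0.000217), the smallest adjusted p of any fallen member. Kcna2, an axonal delayed-rectifier pore, had 12.6, 13.1 and 10.7 FPKM in ICH+P7C3-A20, 9.77, 9.75 and 10.3 FPKM in ICH, and 14.9, 13.4 and 16.1 FPKM in sham. ICH was lowest without overlap, with the treated libraries between ICH and sham, and the log2 change in ICH was -0.62 ± 0.10 (adjusted p = 0.0014). Kcna4, the A-type pore of the same family, had 3.89, 6.37 and 4.24 FPKM in ICH+P7C3-A20, 4.18, 3.77 and 5.45 FPKM in ICH, and 7.45, 6.43 and 11.9 FPKM in sham. Every library with a bleed was below the lowest sham library, ICH+P7C3-A20 2 only narrowly, and the change in ICH was -0.98 ± 0.18 (adjusted p = 0.00293). Kcna5, a delayed rectifier also found in microglia and vessels, had 4.55, 3.92 and 3.75 FPKM in ICH+P7C3-A20, 3.69, 3.13 and 3.12 FPKM in ICH, and 5.09, 4.61 and 6.35 FPKM in sham. Here too ICH lay under sham in every library (-0.73 ± 0.16; adjusted p = 0.00809). Kcnab1, the beta subunit that gives some shaker-type channels fast inactivation, had 8.17, 15.4 and 12.5 FPKM in ICH+P7C3-A20, 11.9, 9.72 and 12.4 FPKM in ICH, and 19.4, 15.5 and 32.2 FPKM in sham. The treated and ICH libraries overlapped and all lay below sham, ICH+P7C3-A20 2 only narrowly, with a log2 change in ICH of -1.01 ± 0.22 (adjusted p = 0.00671). The remaining tested members of the Kv1 family, Kcna1, Kcna3 and Kcna6, had log2 changes of -0.16, -0.68 and -0.29 and did not pass (adjusted p = 0.396, 0.255 and 0.0504). Of the other Kv4 pores, Kcnd1 changed by -0.13 ± 0.18 and Kcnd3 by -0.46 ± 0.24 on that scale, neither past the threshold.

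Kcnq3 and Kcnq5, neuronal pores that contribute to the M current, a slow current that restrains repetitive firing, both fell. Kcnq3 had 10.9, 9.95 and 9.73 FPKM in ICH+P7C3-A20, 7.91, 8.24 and 7.75 FPKM in ICH, and 13.6, 11.3 and 14.3 FPKM in sham. Kcnq5 had 10.6, 8.05 and 8.92 FPKM in ICH+P7C3-A20, 6.72, 5.88 and 6.98 FPKM in ICH, and 10.6, 8.90 and 12.2 FPKM in sham. In both genes the highest ICH library was below the lowest sham library and below the lowest treated library as well. The log2 changes in ICH were -0.76 ± 0.13 for Kcnq3 and -0.74 ± 0.16 for Kcnq5 (adjusted p = 0.0021 and 0.00564).

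Of 14 tested inward rectifiers 5 fell and 1, Kcnj15, rose. Over all tested genes 10.4% fell and 15.6% rose, and the difference from these shares was not tested for this or any other family. Of the 5 fallen inward rectifiers, 3 belong to the strongly rectifying Kir2 group, which holds neurons near their resting potential. Kcnj2 had 3.8, 4.98 and 4.20 FPKM in ICH+P7C3-A20, 3.72, 3.73 and 4.11 FPKM in ICH, and 5.05, 4.96 and 7.51 FPKM in sham, and Kcnj12 had 1.82, 2.76 and 1.66 FPKM in ICH+P7C3-A20, 1.55, 2.06 and 1.85 FPKM in ICH, and 2.88, 3.28 and 3.20 FPKM in sham. Kcnj4 had 27.4, 31.4 and 19.9 FPKM in ICH+P7C3-A20, 19.1, 14.5 and 22.2 FPKM in ICH, and 28.5, 24.1 and 66.5 FPKM in sham. ICH lay below sham without overlap for all 3, and sham 3 held by far the most Kcnj4 of any library. Their log2 changes were -0.64 ± 0.12, -0.82 ± 0.19 and -1.11 ± 0.29 (adjusted p = 0.0034, 0.0104 and 0.0184). Kcnj11, the pore of the neuronal ATP-sensitive channel, had 6.32, 6.46 and 5.88 FPKM in ICH+P7C3-A20, 4.79, 3.97 and 5.49 FPKM in ICH, and 5.68, 6.66 and 8.36 FPKM in sham. The ICH libraries were below both other groups, with a log2 change from sham of -0.58 ± 0.13 (adjusted p = 0.00713). Kcnj5, a G-protein-gated pore, had 0.340, 0.650 and 0.180 FPKM in ICH+P7C3-A20, 0.147, 0.247 and 0.138 FPKM in ICH, and 0.978, 0.721 and 0.328 FPKM in sham, all under 1 FPKM. It had the most negative log2 change of any member called lower, -1.98 ± 0.52, with a wide error (adjusted p = 0.0182). On log2(FPKM + 1) limma gave -0.49 for Kcnj5 (adjusted p = 0.0552). The other G-protein-gated pores, Kcnj3, Kcnj6 and Kcnj9, changed by -0.63, -0.38 and -0.26 and did not pass, nor did Kcnj14, a further Kir2-type pore, at -0.73.

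Kcnb2, a Kv2 pore of the delayed rectifier, fell, as did several silent subunits that join Kv2 channels. Kcnb2 averaged 0.770 ± 0.196 FPKM in ICH+P7C3-A20, 0.554 ± 0.0433 FPKM in ICH and 0.939 ± 0.159 FPKM in sham, a log2 change in ICH of -0.81 ± 0.25 (adjusted p = 0.034). Of 9 tested silent modifiers 4 fell and Kcng4 rose. Kcns2 had 2.65, 4.04 and 2.34 FPKM in ICH+P7C3-A20, 2.02, 2.19 and 3.07 FPKM in ICH, and 4.09, 3.60 and 6.46 FPKM in sham. The highest ICH library was below the lowest sham library, and the log2 change was -1.0 ± 0.20 (adjusted p = 0.00431). Kcnf1, another of them, had 15.0, 10.8 and 6.64 FPKM in ICH+P7C3-A20, 5.38, 4.96 and 6.90 FPKM in ICH, and 9.21, 7.93 and 15.3 FPKM in sham. Treated libraries ran from the ICH level to the level of sham 3, and ICH lay below sham without overlap (-0.95 ± 0.28; adjusted p = 0.0328). Kcng1 and Kcng3 changed by -0.82 ± 0.22 and -1.04 ± 0.34 (adjusted p = 0.0175 and 0.0459), Kcng3 from levels under 0.4 FPKM. Kcng2, Kcnv1, Kcns1 and Kcns3 did not pass, at -1.04, -0.99, -0.21 and -0.04. Kcnv1, like Kcnf1, was highest in ICH+P7C3-A20 1 and sham 3, with 11.6, 6.93 and 6.34 FPKM in ICH+P7C3-A20, 3.93, 3.14 and 4.25 FPKM in ICH, and 5.29, 4.78 and 12.1 FPKM in sham.

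**Figure D3:**
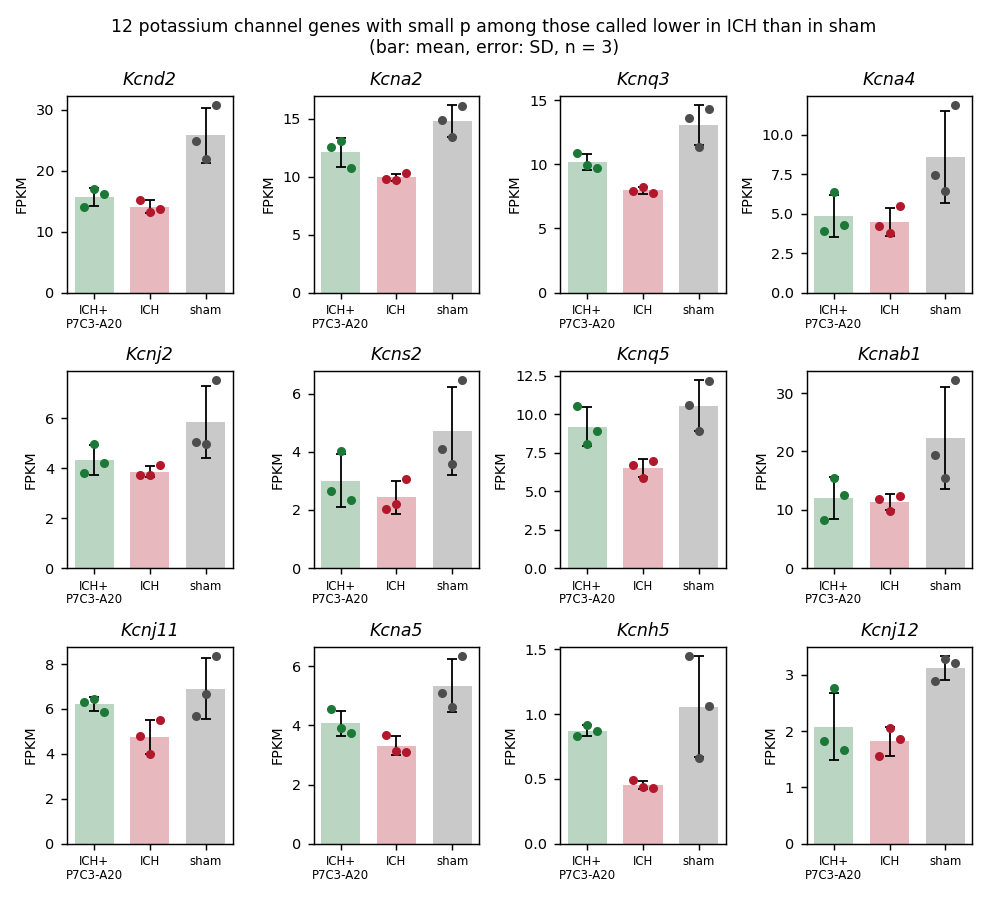
FPKM of 12 potassium channel genes with small p among those called lower in ICH than in sham; bars are group means, error bars SD (n = 3) and points libraries, with ICH+P7C3-A20 left, ICH in the middle and sham right. The ICH points lie below the sham points in every panel, and the treated points lie near ICH for Kcnd2, Kcna4 and Kcnab1 and near sham for Kcnj11.

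In the EAG, ERG and ELK family 3 of 8 fell and all 8 log2 changes were negative. Over all tested genes 10.4% fell and the median log2 change was 0.00, and the family's difference from these was not tested. Kcnh5, an EAG pore, had 0.833, 0.913 and 0.871 FPKM in ICH+P7C3-A20, 0.489, 0.438 and 0.430 FPKM in ICH, and 1.45, 0.664 and 1.06 FPKM in sham. Its ICH libraries lay within a narrow band below the other 2 groups (-1.27 ± 0.29 from sham; adjusted p = 0.00842). Kcnh4, an ELK pore, changed by -0.70 ± 0.18 and Kcnh7, an ERG pore of neurons, by -0.63 ± 0.21 (adjusted p = 0.014 and 0.0476). Kcnh1, Kcnh2, Kcnh3, Kcnh6 and Kcnh8 were at -0.71, -0.43, -0.50, -0.55 and -0.62 and did not pass. Kcnh3, an ELK pore of forebrain, had 16.0, 15.0 and 13.9 FPKM in ICH+P7C3-A20, 8.33, 9.24 and 11.6 FPKM in ICH, and 10.2, 8.65 and 21.7 FPKM in sham, with sham 3 again the highest library. Of 4 Slo-type pores 3 fell: Kcnma1, the large-conductance BK channel opened by voltage and calcium, and the sodium-activated Kcnt1 and Kcnt2. Kcnma1 had 12.5, 8.85 and 7.52 FPKM in ICH+P7C3-A20, 5.67, 5.99 and 6.55 FPKM in ICH, and 9.07, 8.53 and 9.57 FPKM in sham. ICH was below both other groups without overlap (-0.63 ± 0.19 from sham; adjusted p = 0.0316). Kcnt1 had 19.2, 22.9 and 20.5 FPKM in ICH+P7C3-A20, 15.4, 14.2 and 18.6 FPKM in ICH, and 20.8, 15.5 and 29.8 FPKM in sham, with ICH 3 inside the sham range, and changed by -0.49 ± 0.16 (adjusted p = 0.0452). Kcnt2, at 1 to 2 FPKM, changed by -0.51 ± 0.16 (adjusted p = 0.0374), and Kcnu1, known from sperm, by -0.42 without passing. The large-conductance channel's beta subunits did not pass: Kcnmb4, the neuronal one, was at -0.27 ± 0.18, Kcnmb1, known from smooth muscle, at 0.61 ± 0.55 and Kcnmb2 at -0.18 ± 0.58.

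Among the remaining families single members fell. Kcnk2, the stretch- and lipid-sensitive K2P channel TREK1, had 9.99, 13.2 and 11.7 FPKM in ICH+P7C3-A20, 10.5, 7.71 and 8.97 FPKM in ICH, and 13.3, 10.4 and 21.3 FPKM in sham. ICH 1 reached the level of sham 2 and sham 3 stood highest, and the log2 change in ICH was -0.76 ± 0.19 (adjusted p = 0.0127). Kcnc1, the Kv3 pore of fast-spiking neurons, had 12.4, 11.7 and 10.4 FPKM in ICH+P7C3-A20, 9.37, 9.94 and 8.25 FPKM in ICH, and 12.7, 14.8 and 11.7 FPKM in sham. ICH lay below both other groups (-0.56 ± 0.17; adjusted p = 0.0298), while Kcnc2 and Kcnc4 did not pass at -0.46 and -0.51. Kcnn3, a small-conductance calcium-activated pore, changed by -0.39 ± 0.11 (adjusted p = 0.0264), and its relatives Kcnn1 and Kcnn2 by 0.02 and -0.41 without passing. Kcnip4, a Kv4 partner, had 16.0, 8.89 and 9.21 FPKM in ICH+P7C3-A20, 7.57, 8.29 and 6.26 FPKM in ICH, and 16.9, 19.6 and 9.46 FPKM in sham. It changed by -1.12 ± 0.36 (adjusted p = 0.0432), and Kcnip1, Kcnip2 and Kcnip3 by -0.98, -0.66 and 0.04 without passing. Kcnip2 had 28.1, 44.0 and 38.6 FPKM in ICH+P7C3-A20, 34.4, 27.5 and 36.9 FPKM in ICH, and 40.7, 33.9 and 78.9 FPKM in sham, so that sham 2 lay inside the ICH range and sham 3 far above it. The beta subunits Kcnab2 and Kcnab3 were at -0.33 ± 0.12 and 0.07 ± 0.19 and did not pass.

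Markers of several neuron types, though not of cortical excitatory neurons, fell beside these channel genes. Of 8 pan-neuronal markers 7 fell in ICH, with summed levels of 519 to 749 FPKM in ICH+P7C3-A20, 439 to 474 FPKM in ICH and 672 to 715 FPKM in sham. All 8 striatal projection neuron markers fell, summing to 541 to 840 FPKM in ICH+P7C3-A20, 602 to 771 FPKM in ICH and 921 to 1615 FPKM in sham. Of 6 GABAergic interneuron markers 3 fell, with 247 to 262 FPKM in ICH+P7C3-A20, 187 to 278 FPKM in ICH and 303 to 338 FPKM in sham, and of 6 thalamic and hypothalamic markers 1 fell, with 10.4 to 26.9 FPKM in ICH+P7C3-A20, 16.3 to 37.5 FPKM in ICH and 5.60 to 82.3 FPKM in sham. Of 6 cortical excitatory markers edgeR, DESeq2 and limma called 0, with 0 at an unadjusted p under 0.05 by edgeR's quasi-likelihood test and a median log2 change of 0.10. No marker of these lists was at 0 in any group. The median log2 change was -0.67 for the pan-neuronal and -0.85 for the striatal list, beside -0.46 for the tested channel genes. The part of neuron number in the channel results was not tested.

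Of the fallen members named here, 12 kept their calls with each library left out in turn: Kcnd2, Kcna2, Kcnq3, Kcna4, Kcnj2, Kcns2, Kcnq5, Kcnab1, Kcnj11, Kcnh5, Kcna5 and Kcnj12. Of these 12, limma on log2(FPKM + 1) ended the calls of Kcnab1 (0.0513), Kcnj2 (0.058) and Kcnj11 (0.0598), numbers in parentheses being adjusted p. Among low genes the changes were smaller on that scale, at -0.49 for Kcnh5 (0.032) and -0.17 for Kcng3 (0.0907). The other 15 lost the call when certain libraries were left out: Kcnh4 without ICH 2 (0.0613), Kcnk2 without ICH 2 or ICH 3 (0.0536 to 0.0585), Kcnj4 without ICH 1 or ICH 2 (0.0532 to 0.0715), Kcng1 without ICH 1, ICH 3 or sham 1 (0.0578 to 0.0725), Kcnj5 without ICH 1, ICH 3 or sham 1 (0.0707 to 0.0754), Kcnn3 without ICH 1, ICH 3 or sham 1 (0.0925 to 0.11) and Kcnc1 without ICH 1, ICH 3, sham 1 or sham 2 (0.0771 to 0.117). Kcnf1 lost it without ICH 1, ICH 2, ICH 3, sham 1 or sham 3 (0.058 to 0.12), Kcnt1 without ICH 1, ICH 2, ICH 3, sham 1 or sham 3 (0.0763 to 0.141), Kcnt2 without ICH 1, ICH 2, ICH 3, sham 1 or sham 3 (0.0741 to 0.122) and Kcnh7 without ICH 1, ICH 2, ICH 3, sham 1 or sham 3 (0.101 to 0.136). Kcnma1 lost it without ICH 1, ICH 2, ICH 3, sham 1 or sham 2 (0.0633 to 0.105), Kcnb2 without ICH 1, ICH 2, ICH 3, sham 1 or sham 2 (0.071 to 0.132), Kcnip4 without ICH 1, ICH 2, ICH 3, sham 1 or sham 2 (0.065 to 0.155) and Kcng3 without any 1 of the 6 (0.0546 to 0.154).

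Kcnj10, Kcnj16, Kcnj8 and Kcnk1, members known from astrocytes or vessels, did not pass in any comparison. Kcnj10, the astrocytic inward rectifier that takes up potassium, had 33.7, 63.2 and 54.6 FPKM in ICH+P7C3-A20, 66.1, 70.6 and 62.2 FPKM in ICH, and 42.1, 55.2 and 32.6 FPKM in sham. The ICH libraries lay above all sham libraries, but the log2 change of 0.55 ± 0.24 missed the threshold (adjusted p = 0.121). Kcnj16, which pairs with it, had 4.46, 4.95 and 4.42 FPKM in ICH+P7C3-A20, 5.17, 5.46 and 5.72 FPKM in ICH, and 4.06, 4.48 and 2.51 FPKM in sham and changed by 0.49 ± 0.22 (adjusted p = 0.125). Astrocyte markers summed to 397 to 552 FPKM in ICH+P7C3-A20, 855 to 952 FPKM in ICH and 207 to 237 FPKM in sham, 5 of 6 higher in ICH than in sham, with none at 0. Most of that rise was Gfap, which averaged 233 FPKM in ICH+P7C3-A20, 631 FPKM in ICH and 23.9 FPKM in sham. Slc1a2, the marker not called, had a log2 change in ICH over sham of -0.29. The part of astrocytes in the values of Kcnj10 and Kcnj16 was not tested. Kcnj8, the pore of the vascular ATP-sensitive channel, had 0.872, 1.76 and 1.62 FPKM in ICH+P7C3-A20, 1.43, 1.58 and 1.75 FPKM in ICH, and 1.08, 0.914 and 1.5 FPKM in sham. Its groups overlapped (0.40 ± 0.26; adjusted p = 0.299), whereas 6 of 7 pericyte and smooth muscle markers rose in ICH, with sums of 64.1 to 92.2 FPKM in ICH+P7C3-A20, 115 to 127 FPKM in ICH and 52.1 to 59.1 FPKM in sham. Abcc9, listed below as a partner of potassium channels, is among these 7 markers. Kcnk1, a K2P pore of neurons and astrocytes, had 27.6, 34.5 and 28.6 FPKM in ICH+P7C3-A20, 31.9, 26.4 and 34.1 FPKM in ICH, and 25.3, 26.5 and 33.5 FPKM in sham, and its change of 0.07 ± 0.09 left it within the spread (adjusted p = 0.655). The remaining tested K2P genes, Kcnk3, Kcnk4, Kcnk5, Kcnk7, Kcnk9, Kcnk10 and Kcnk12, had changes of -0.49, 0.09, 0.50, 1.47, -0.55, 0.38 and -0.46, none past the threshold.

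Comparing ICH+P7C3-A20 with ICH asks what treatment did after the bleed. Of the 88 tested members 9 (10.2%) rose and 2 (2.27%) fell in treated brains, where 2.69% of all tested genes rose and 6.05% fell. The median log2 change of the tested members was 0.36, against -0.01 for all genes. Treated libraries lay above all ICH libraries for 30 members and below them for 7, against 10.7% and 16.4% of all tested genes. With scaling by library totals the members' calls were 5 higher and 2 lower, and all genes gave 302 higher and 1248 lower, against 590 and 1324 here. This comparison shares its ICH libraries with the one above, so a high or low ICH library enters both.

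Those that rose were pores of several families known from neurons and 1 beta subunit. Kcnh7, the ERG pore, had 3.96, 2.85 and 2.23 FPKM in ICH+P7C3-A20, 1.39, 1.24 and 1.54 FPKM in ICH, and 1.95, 1.70 and 2.65 FPKM in sham. ICH+P7C3-A20 1 was the highest library and every treated library lay above ICH, with a log2 change of 1.19 ± 0.21 (adjusted p = 0.00987). Kcnk9, an acid-sensitive K2P pore, had 8.41, 5.55 and 5.56 FPKM in ICH+P7C3-A20, 2.94, 4.23 and 3.39 FPKM in ICH, and 5.07, 4.62 and 5.35 FPKM in sham. ICH+P7C3-A20 1 again stood highest (0.96 ± 0.22; adjusted p = 0.0269). Of the G-protein-gated inward rectifiers, which slow firing when inhibitory receptors are active, Kcnj6 had 1.20, 0.880 and 0.584 FPKM in ICH+P7C3-A20, 0.313, 0.430 and 0.369 FPKM in ICH, and 0.565, 0.328 and 0.514 FPKM in sham and Kcnj3 had 12.1, 8.42 and 6.44 FPKM in ICH+P7C3-A20, 4.58, 5.21 and 5.20 FPKM in ICH, and 7.76, 7.84 and 6.74 FPKM in sham. Both were highest in ICH+P7C3-A20 1 and every treated library lay above every ICH library, with log2 changes over ICH of 1.31 ± 0.32 and 0.91 ± 0.23 (adjusted p = 0.0305 and 0.0342). On log2(FPKM + 1) limma gave 0.45 for Kcnj6 (adjusted p = 0.0667). Their partner Kcnj9 had 13.6, 15.7 and 9.74 FPKM in ICH+P7C3-A20, 7.97, 9.08 and 10.8 FPKM in ICH, and 8.06, 11.3 and 13.2 FPKM in sham and did not pass (0.53 ± 0.17; adjusted p = 0.0766). Kcnma1, the large-conductance pore whose values are given above, rose by 0.74 ± 0.19 on the log2 scale (adjusted p = 0.0372). Kcnab2, the abundant beta subunit, had 37.9, 35.7 and 31.6 FPKM in ICH+P7C3-A20, 24.6, 26.3 and 28.1 FPKM in ICH, and 29.1, 29.4 and 37.9 FPKM in sham. Treated libraries were above ICH in every case and overlapped sham, with a change over ICH of 0.48 ± 0.12 (adjusted p = 0.0376). Kcnt2, with 1.35, 1.98 and 1.53 FPKM in ICH+P7C3-A20, 1.08, 0.987 and 1.26 FPKM in ICH, and 1.57, 1.18 and 1.85 FPKM in sham, rose by 0.59 ± 0.16 (adjusted p = 0.0447). Kcnq5 rose by 0.57 ± 0.16, close to the threshold (adjusted p = 0.0476). On log2(FPKM + 1) limma ended the calls of Kcnma1 (0.0647), Kcnq5 (0.105), Kcnab2 (0.124) and Kcnt2 (0.245), adjusted p in parentheses. On log2(FPKM + 0.1) limma also ended the call of Kcnj3 (0.0503). Just outside edgeR's threshold were Kcnv1 at 1.22 ± 0.34, Kcnj11 at 0.46 ± 0.13, Kcnh5 at 1.0 ± 0.29 and Kcnf1 at 0.99 ± 0.28 (adjusted p = 0.0511, 0.0534, 0.0564 and 0.0587).

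The 2 that fell were Kcnn4 and Kcnk6. Kcnn4, at the levels given above, fell by 1.68 on the log2 scale relative to ICH (-1.68 ± 0.40; adjusted p = 0.0299). For Kcnn4 limma gave -1.10 on log2(FPKM + 0.1) and -0.26 on log2(FPKM + 1), still past the threshold (adjusted p = 0.0425 and 0.0216). Kcnk6 fell by 0.87 (-0.87 ± 0.23; adjusted p = 0.0411). Its call ended under limma on log2(FPKM + 0.1), with a change of -0.93 (adjusted p = 0.0568). Kcnk13 at -0.63 ± 0.21, Kcng4 at -1.09 ± 0.33, Kcnq1 at -1.03 ± 0.38, Kcne3 at -1.20 ± 0.83 and Kcnj15 at -0.52 ± 0.71 did not pass (adjusted p = 0.0934, 0.0654, 0.123, 0.441 and 0.73). Of the 7 monocyte and macrophage markers 5 fell in treated relative to untreated ICH, and of the 6 resident microglia markers 3 fell, with the sums given above. In ICH+P7C3-A20 1, 2 and 3 the monocyte and macrophage markers summed to 28.1, 56.4 and 62.7 FPKM. In the same libraries Kcnk6 had 1.42, 2.19 and 2.67 FPKM and Kcnn4 had 0.0784, 0.148 and 0.0572 FPKM. Lyz2 made up most of the marker sum, with 23.1, 48.3 and 54.9 FPKM. Ccr2 had the same order of libraries, but Arg1, Ms4a7, Msr1, Itga4 and Mrc1 did not. Kcnk6 had the order of the marker sum and Kcnn4, on 26, 53 and 20 counts, did not. The part of these cells in either gene was not tested.

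Neuronal marker lists differed in how far they moved under treatment. Of 8 pan-neuronal markers edgeR called 1, which rose, DESeq2 called 7 and limma 0, with 7 at an unadjusted p under 0.05 by edgeR's quasi-likelihood test. The list median log2 change was 0.60, and ICH+P7C3-A20 1, 2 and 3 had summed levels of 749, 619 and 519 FPKM. For cortical excitatory markers edgeR and limma called 0 of 6 and DESeq2 called 2, with 3 at an unadjusted p under 0.05 by edgeR's quasi-likelihood test, a median log2 change of 1.43 and 175, 66.9 and 70.1 FPKM in the 3 treated libraries. Of 6 GABAergic interneuron markers 1 rose, with a median of 0.22. The striatal and the thalamic and hypothalamic lists had medians of 0.07 and 0.04, edgeR, DESeq2 and limma called 0 of 8 and 0 of 6 of them, and 1 marker of each list had an unadjusted p under 0.05 by edgeR's quasi-likelihood test. The part of neurons in these channel changes was not tested. Only Kcnh7 of the 11 calls held with each of the 6 libraries left out. Without ICH+P7C3-A20 1 there were 2 members higher and 0 lower. Without ICH 1, 2 or 3 there were 1, 2 and 1 higher and 0 lower. The call of Kcnk9 ended without ICH+P7C3-A20 1, ICH 1 or ICH 3 (0.0744 to 0.112), of Kcnj3 without ICH+P7C3-A20 1, ICH 1, ICH 2 or ICH 3 (0.0718 to 0.125), of Kcnj6 without ICH+P7C3-A20 1, ICH 1, ICH 2 or ICH 3 (0.0627 to 0.12) and of Kcnma1 without ICH 1, ICH 2 or ICH 3 (0.0962 to 0.133), adjusted p in parentheses. The call of Kcnab2 ended without ICH+P7C3-A20 1, ICH+P7C3-A20 3, ICH 1, ICH 2 or ICH 3 (0.0622 to 0.147), of Kcnq5 without ICH+P7C3-A20 1, ICH+P7C3-A20 3, ICH 1, ICH 2 or ICH 3 (0.103 to 0.165), of Kcnk6 without ICH+P7C3-A20 1, ICH+P7C3-A20 2, ICH 1, ICH 2 or ICH 3 (0.0883 to 0.147), of Kcnn4 without ICH+P7C3-A20 1, ICH+P7C3-A20 3, ICH 1, ICH 2 or ICH 3 (0.0733 to 0.115), and of Kcnt2 without any 1 of the 6 (0.0751 to 0.141).

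**Figure D4:**
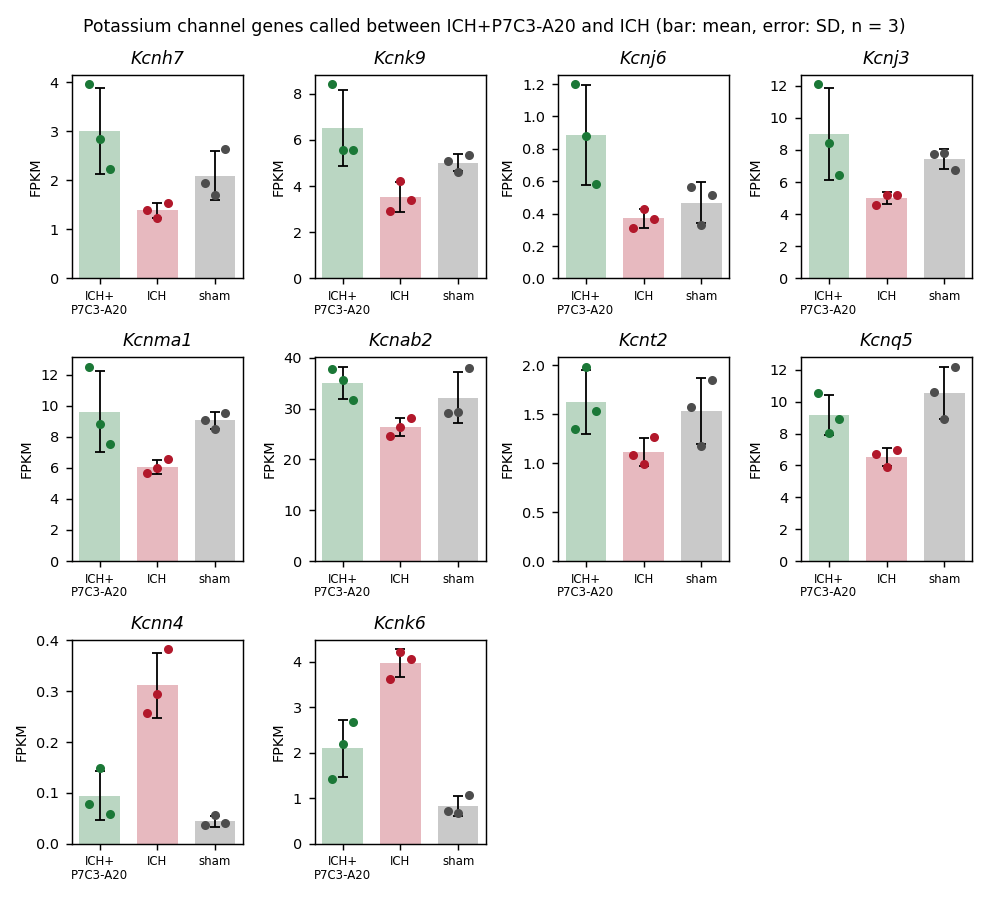
FPKM of 10 potassium channel genes called between ICH+P7C3-A20 and ICH; bars are group means, error bars SD (n = 3) and points libraries, with ICH+P7C3-A20 left, ICH in the middle and sham right. In the first 8 panels the treated points lie above the ICH points, with a wide spread in Kcnh7, Kcnj6, Kcnj3 and Kcnma1, and in the last 2, Kcnn4 and Kcnk6, they lie below.

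Comparing ICH+P7C3-A20 with sham asks where treated brains still differed from controls. Of the 88 tested members 2 (2.27%) were higher and 3 (3.41%) lower, where 4.58% of all tested genes were higher and 0.744% lower, and the median log2 change was -0.01, against 0.03 for all genes. It was also -0.01 with the gene at 0 in sham set to its fold against a floor of 3 counts. Groups did not overlap for 8 members above and 8 below sham, against 10.7% and 5.39% of all tested genes. Kcnk6, at 1.42, 2.19 and 2.67 FPKM in ICH+P7C3-A20, against 0.726, 0.668 and 1.07 FPKM in sham, was higher, with a log2 change of 1.37 ± 0.23 (adjusted p = 0.00723). Against a floor of 3 counts over the sham group Kcne3 was 11.8-fold higher, again not a strict lower bound (adjusted p = 0.0329). That call rests on 10, 19 and 4 counts in ICH+P7C3-A20 and passed the count filter only through the ICH group. With ICH+P7C3-A20 and sham alone Kcne3 was not tested, and it missed under limma (adjusted p = 0.196 to 0.39) and with the replicate number as a block (0.0759). Kcnd2, at 14.1, 16.9 and 16.2 FPKM in ICH+P7C3-A20, against 24.8, 21.9 and 30.8 FPKM in sham, was lower, with a log2 change of -0.70 ± 0.11 (adjusted p = 0.0054). Kcna4 and Kcnab1 were lower too, with changes of -0.82 ± 0.18 and -0.88 ± 0.22 (adjusted p = 0.0267 and 0.0438). For the last 3 genes the treated libraries lay under the lowest sham library in every case, though narrowly for Kcna4 and Kcnab1. In ICH+P7C3-A20 2 and sham 2 Kcnab1 had 15.43 and 15.46 FPKM, from 11795 counts in each, and Kcna4 had 6.37 and 6.43 FPKM. Of 8 striatal projection neuron markers edgeR called 3 lower in ICH+P7C3-A20 than in sham, DESeq2 called 8 and limma 0. All 8 had an unadjusted p under 0.05 by edgeR's quasi-likelihood test, and their median log2 change was -0.72. Their part in Kcnd2, Kcna4 and Kcnab1 was not tested. Kcnk6 and Kcnd2 kept their calls with each library left out, but Kcnk6 missed under limma on log2(FPKM + 1), with a change of 0.75 (0.0578), and on quantile-normalized values (0.0601), and Kcnd2 under the first (0.0541). Kcna4 lost its call without ICH+P7C3-A20 1, ICH+P7C3-A20 3 or sham 1 (0.0616 to 0.116), Kcnab1 without ICH+P7C3-A20 1, ICH+P7C3-A20 2, ICH+P7C3-A20 3, sham 1 or sham 3 (0.0664 to 0.101) and Kcne3 without ICH+P7C3-A20 2, ICH+P7C3-A20 3, sham 1, sham 2 or sham 3 (0.0511 to 0.0889), adjusted p in parentheses. Without ICH+P7C3-A20 1 there were 3 higher and 1 lower members, and without sham 3 there were 2 higher and 3 lower. Scaling by library totals gave 2 higher and 1 lower, limma on log2(FPKM + 1) 0 and 0, and limma after quantile normalization of those values 0 higher and 1 lower. Kcnj15, Kcnj2 and Kcns2 came nearest to the threshold among the other members, at 2.85 ± 0.80, -0.42 ± 0.12 and -0.64 ± 0.20 (adjusted p = 0.0729, 0.0819 and 0.1).

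A pair of subunits varied widely among the libraries of every group. Kcnj13, an inward rectifier on the apical face of choroid plexus epithelium, had 3.70, 10.6 and 0.231 FPKM in ICH+P7C3-A20, 6.86, 0.0631 and 18.1 FPKM in ICH, and 1.74, 3.70 and 0.0416 FPKM in sham. Kcne2, a KCNE subunit of the same epithelium, had 1.46, 5.48 and 0.274 FPKM in ICH+P7C3-A20, 4.29, 0.0929 and 8.80 FPKM in ICH, and 0.624, 1.24 and 0.184 FPKM in sham. Both were highest in ICH 3, then ICH+P7C3-A20 2 and ICH 1, and lowest in ICH 2 and sham 3. The 6 choroid plexus markers Ttr, Folr1, Kl, Aqp1, Clic6 and Otx2, none at 0, summed to 412, 1599 and 45.3 FPKM in ICH+P7C3-A20, 785, 17.4 and 2365 FPKM in ICH, and 96.4, 403 and 12 FPKM in sham. The highest 3 and lowest 2 libraries were thus those of the 2 channel genes. Neither gene passed in any comparison, with log2 changes in ICH over sham of 2.01 ± 1.78 and 2.52 ± 1.39 (adjusted p = 0.481 and 0.237). Kcnj10 in the same libraries ranged only from 32.6 to 70.6 FPKM. How much choroid plexus each library held was not measured in another way.

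**Figure D5:**
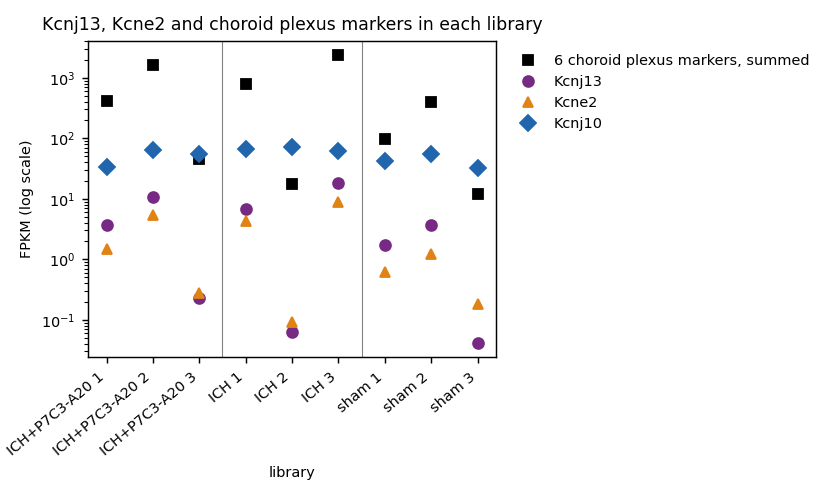
FPKM on a log axis of Kcnj13, Kcne2, Kcnj10 and the sum of 6 choroid plexus markers in each of the 9 libraries, ordered ICH+P7C3-A20, ICH, sham. Kcnj13 and Kcne2 follow the marker sum up and down across libraries within each group, while Kcnj10 stays between 32.6 and 70.6 FPKM.

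The remaining KCNE subunits did not pass: Kcne1l had 2.46, 4.12 and 4.89 FPKM in ICH+P7C3-A20, 6.72, 6.08 and 5.76 FPKM in ICH, and 3.31, 5.23 and 4.08 FPKM in sham and Kcne4 averaged 0.290 ± 0.105 FPKM in ICH+P7C3-A20, 0.373 ± 0.172 FPKM in ICH and 0.348 ± 0.210 FPKM in sham (mean ± SD, n = 3 each). The 5 antisense rows were all under 1.1 FPKM. Kcnq1ot1, the paternally expressed long transcript inside Kcnq1 that silences its neighbours, had 0.310, 0.260 and 0.290 FPKM in ICH+P7C3-A20, 0.229, 0.241 and 0.169 FPKM in ICH, and 0.285, 0.246 and 0.215 FPKM in sham and was higher in every treated library than in every ICH library, while sham overlapped both. Kcnab3os, Kcnd3os and Kcnmb4os2 changed by -0.36, -1.11 and -0.22 in ICH over sham. None of the 4 tested antisense rows passed: edgeR, DESeq2 and limma each called 0 for every pair of groups, and with an unadjusted p under 0.05 edgeR's quasi-likelihood model gave 0 for ICH over sham, 1 for treated over untreated ICH and 0 for treated ICH over sham. The 9 rows too low to test were Kcna7, Kcna10, Kcne1, Kcnj1, Kcnk15, Kcnk16, Kcnk18, Kcnv2 and Kcnmb4os1, with 3 to 62 counts over the 9 libraries together and at most 21 in any library. Of these, Kcnj1, the renal secretory channel ROMK, Kcna7, a muscle pore, Kcnk16, a pancreatic pore, Kcnk18, a sensory-neuron pore, and Kcne1, the cardiac KCNQ1 partner, were at 0 in every sham library, as was the tested Kcne3. A level of 0 says only that the gene was not detected at this depth.

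The wider set of potassium handling genes was read from lists. Of 15 tested partners and regulators of potassium channels outside the 97 rows, 9 fell and 1 rose in ICH, with a median log2 change of -0.63. Over all tested genes 10.4% fell and 15.6% rose, and the difference was not tested. Lgi1, a secreted protein that acts with shaker-type channels, averaged 7.24 ± 1.16 FPKM in ICH+P7C3-A20, 4.58 ± 0.671 FPKM in ICH and 8.85 ± 0.872 FPKM in sham, and fell by 1.0 on the log2 scale in ICH (adjusted p = 0.000905). Dpp6 and Dpp10, accessory subunits of Kv4 channels, were at -0.76 ± 0.18 and -0.95 ± 0.21 (adjusted p = 0.00976 and 0.00774). Cntnap2, which clusters shaker-type channels beside nodes of Ranvier, was at -0.85 ± 0.16 (adjusted p = 0.00299), and Amigo1, a Kv2 partner, at -0.54 ± 0.10 (adjusted p = 0.00347). Of the sulfonylurea receptors of ATP-sensitive channels, Abcc8 fell with Kcnj11 (-0.63 ± 0.13; adjusted p = 0.00549) and Abcc9, the vascular one, rose (0.82 ± 0.19; adjusted p = 0.00935). Abcc9 is also in the list of pericyte and smooth muscle markers above. In ICH+P7C3-A20 relative to ICH 4 of the 15 rose, Lgi1 at 0.73, Dpp10 at 0.84, Abcc8 at 0.55 and Adam22 at 0.41, and 0 fell, where 2.69% of all tested genes rose and 6.05% fell. Relative to sham edgeR and limma called 0 of the 15 and DESeq2 2, with 6 at an unadjusted p under 0.05 by edgeR's quasi-likelihood test. Of 14 tested pumps and cotransporters 3 rose and 2 fell in ICH, where 15.6% of all tested genes rose and 10.4% fell. So few calls do not set this list apart from all genes. Slc12a5, the neuronal chloride-extruding cotransporter KCC2, averaged 41.8 ± 7.66 FPKM in ICH+P7C3-A20, 30.6 ± 3.25 FPKM in ICH and 52.3 ± 11.6 FPKM in sham, with log2 changes of -0.81 ± 0.12 in ICH over sham and 0.50 ± 0.12 in ICH+P7C3-A20 over ICH (adjusted p = 0.000907 and 0.0348). Atp1b1, a sodium pump beta subunit, fell with a change of -0.68 ± 0.17 (adjusted p = 0.0125). Slc12a4 and Slc12a7, potassium-chloride cotransporters found in many cell types, rose by 1.31 ± 0.23 and 1.64 ± 0.22 (adjusted p = 0.00186 and 0.000425).

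Some member counts can include reads of neighbouring genes. Of the 97 rows 38 overlap a gene on the opposite strand and 13 a gene on the same strand. These overlaps are of whole gene spans, introns included, so many need not add reads to a member. Which strand setting was used in counting is not stated in the labels or headers. Shared transcript sequence was found for Kcna6, Kcnj3, Kcnj6, Kcnj13, Kcnj14, Kcnj15, Kcnk2, Kcnk4, Kcnma1, Kcnmb4 and Kcnn2, over 277 to 2358 bases at 99.1% to 100% identity, so the values of these genes are uncertain to that extent.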

How the data were processed

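Stranded libraries of polyadenylated RNA were sequenced from 9 mouse brains, per the labels' protocols. The submitters' processing notes name cutadapt 1.9, HISAT2 2.0.4 and StringTie 1.3.4d; the sources used here do not give build, strand setting or counting step. Per the file headers, the authors deposited 1 table of FPKM values and whole-number estimated counts. Most deposited estimated counts of low single-transcript genes (93.5% to 94.8% by library) equalled the FPKM scaled by transcript length and a constant and rounded up, within 0.01. All 97 member IDs are in GENCODE M21, 85 at the same position and strand.

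Estimated counts were tested in edgeR 4.0.16 (R 4.3.3) after filterByExpr with a minimum count of 10 and minimum total of 15, and TMM scaling. The robust quasi-likelihood fit had a mean for each of 3 groups, used all 9 libraries and left 6 residual degrees of freedom. Tests were two-sided with Benjamini-Hochberg adjustment over 21900 genes, and calls were made at 0.05. FPKM values are shown as deposited. For a gene at 0 in a group, folds were set against a floor of 3 counts over that group, which takes each estimated count as 1 fragment. Named genes were, per comparison, the 24 called members with the smallest p (all where fewer) and a panel of 30; other members are given for completeness. A few genes and list results are not reported here, and figures leave those genes out, while counts over members and lists include them. Members, lists and tests were chosen with earlier results of these data known. Alternatives covered scaling, filters, pseudocounts, DESeq2 1.42.0, limma 3.58.1, fits of only the groups compared, a block by replicate number and omission of single libraries. Fits were tested on simulated data. Promoters are RefSeq windows. Shared transcript sequence (at least 200 bases, 95% identity) was searched with minimap2 2.31. Matplotlib 3.10.9 in Python 3.11.15 drew the figures.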

Additional observations from a re-analysis of the deposited data

How the results depend on the processing

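No named member changed the sign of a called log2 change under any alternative run. Counts of calls are given as higher and lower members, and the cause of a difference was not tested except where a filter removes genes. In ICH against sham, lower members numbered 38 with DESeq2, 36 with upper-quartile scaling and 32 with RLE scaling, a median-ratio method. They numbered 32 with limma after quantile normalization, 25 with no count filter and 23 with library totals. For ICH against sham, with 7 and 29 called, a filter at 1 FPKM left 3 higher because it removes low genes, limma on log2(FPKM + 1) gave 12 lower, limma on log2(FPKM + 0.1) 15 lower, and leaving out 1 library 6 to 7 higher and 16 to 31 lower; the members' median log2 change of -0.46 became -0.38 with library totals, -0.25 and -0.35 with limma at the larger and smaller pseudocount, -0.35 with limma after quantile normalization (chosen after seeing the data) and -0.48 to -0.42 with 1 library left out. For ICH+P7C3-A20 against ICH, with 9 and 2 called, higher members numbered 14 with upper-quartile scaling, 5 with library totals, 14 with the FPKM filter, 22 with DESeq2, 3 and 2 with limma and 1 to 12 with 1 library left out; lower members numbered 1 with the FPKM filter, 4 with DESeq2, 1 with limma on log2(FPKM + 0.1) and 0 to 3 with 1 library left out; the median of 0.36 became 0.20 with limma on log2(FPKM + 1) and 0.27 to 0.42 with 1 library left out. For ICH+P7C3-A20 against sham, with 2 and 3 called, higher members numbered 1 with the FPKM filter, 4 with DESeq2, 0 and 1 with limma, 0 with limma after quantile normalization, 1 with the 2 groups alone, 1 with the replicate block and 1 to 3 with 1 library left out; lower members numbered 1 with library totals, 6 with DESeq2, 0 and 1 with limma, 1 with limma after quantile normalization, 1 with the 2 groups alone and 1 to 3 with 1 library left out; the median of -0.01 ranged from -0.12 to 0.06 with 1 library left out. Where leaving out a library leaves 2 against 3 samples, the pooled spread of the other groups is used. With the replicate number as a block the counts were 6 and 29, 6 and 2, and 1 and 2 in the 3 comparisons. Deviations of same-numbered samples correlated at -0.13 to 0.09 over 9 pairs, and 2 of 9 were highest with their own number, so no pairing by number was seen. With so few samples this cannot exclude a pairing. Precision is limited by 3 mice per group and, for the rows under 1 FPKM, by depth.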
